A study of Sus scrofa with 5 samples.

Results

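The CRABP1-high cells are cells of porcine blastoids that held many transcripts of *CRABP1*, the gene of a cytoplasmic retinoic acid-binding protein, and few transcripts of glial-type neural crest and of collagen-producing cells. A barcode counted as a cell when it had at least 11223 unique molecular identifiers (UMIs, counted transcript molecules) in library 1 or 9805 in library 2. A cell was taken as CRABP1-high with at least 15 *CRABP1* UMIs, fewer than 3 UMIs of *SCRG1* and *SOX10* together and fewer than 10 of *COL3A1* and *COL1A2* together. These rules chose 232 of 7369 cells in library 1 (3.15%, exact Clopper-Pearson 95% interval 2.76 to 3.57%) and 405 of 8175 in library 2 (4.95%, 4.49 to 5.45%), or 637 of 15544 cells in all. The intervals cover counting error only, and the share of each library lay outside the interval of the other. By their markers, the cells carried eye field and anterior neural plate genes together with *CDH2*, and *POU5F1* at a level below that of free RNA. *SOX1*, the marker of committed neural ectoderm, was found in 28.0 and 27.4% of them. At least 5 UMIs of the neural plate border genes *PAX3* and *PAX7* together were found in 55.6 and 57.3% of them. This was shared with a compared set of cells chosen on *SCRG1* and *SOX10*, where 16 of 32 and 17 of 37 had as many. Against all other cells, *NES* and the E-cadherin gene *CDH1* did not pass the main test, though *CDH1* was called lower in several other settings, and *OTX1* and *POU3F2* were lower.

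The study built blastocyst-like structures, called blastoids, from porcine embryonic stem cells (pESCs) and read their cells by droplet single-cell RNA sequencing. Both libraries came from blastoids of day 6, grown from dissociated pESCs by a two-step, three-dimensional protocol that ended in iBlastoid medium, and no untreated or embryo library was analysed here. Blastoids with an inner compartment and a cavity were picked by hand and pooled, so no cell can be traced to 1 blastoid, and nothing in the labels says that the libraries came from separate cultures. The bulk pESC libraries of the series were not used here.

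Before neurulation, the epiblast gives rise to an anterior neural plate, whose front part carries the eye field and the future forebrain. SIX3, SIX6, RAX and LHX2 are homeodomain transcription factors that work together in the eye field, FEZF1 and HESX1 are forebrain repressors, and PAX3 and PAX7 mark the lateral border of the plate, from which the neural crest leaves. Neural ectoderm exchanges E-cadherin (CDH1) for N-cadherin (CDH2) and silences POU5F1 and NANOG, the core factors of pluripotency, while SOX2 and OTX2 are used both in the epiblast and in the neural plate. *CRABP1* is known from hindbrain, neural crest and retina, where its product buffers retinoic acid.

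The depth of the CRABP1-high cells was close to that of the libraries as a whole, with a median of 26312 and 26054 UMIs per cell in libraries 1 and 2 against 29728 and 27588 over all cells. Mitochondrial transcripts took a median of 0.533 and 0.437% of their UMIs against 0.604 and 0.584% over all cells. Among the cells with the highest doublet scores, which were 5.89 and 6.54% of all cells, stood 25 and 55 CRABP1-high cells (10.8 and 13.6% of them). The automatic doublet threshold marked 1 and 0 cells and was not used. Without the highest-scoring cells, the log2 fold changes against all other cells were 3.45 ± 0.12 for *SIX3*, 4.83 ± 0.10 for *LHX2* and 2.88 ± 0.08 for *CDH2*, each larger than with them. The libraries shared 9 cell barcodes, and no barcode was a CRABP1-high cell in both.

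The gate itself fixed the *CRABP1* values, which are therefore described and not tested. *CRABP1* lies on chromosome 7, from 47602316 to 47608865 of susScr11. The cells held from 15 to 370 *CRABP1* UMIs in library 1, with a median of 75, and from 15 to 502 in library 2, with a median of 57. Summed, this was 3131 and 2908 CPM (UMIs of the gene per 1000000 UMIs of the same cells) against 50.6 and 52.3 CPM in all other cells. The CRABP1-high cells held 65.9 and 73.6% of the *CRABP1* UMIs of all cells, while 63.1 and 54.2% of all cells had none. Empty droplets, barcodes with 10 to 100 UMIs that carry free RNA, held 281 and 380 CPM, above the level of most cells. Of the 299 and 458 cells with at least 15 *CRABP1* UMIs, 42 and 37 were left out for *SCRG1* and *SOX10* and 44 and 28 for the collagens, with 19 and 12 of them meeting both conditions. The limits left some of these transcripts in, since a UMI of *COL1A2* was found in 47.0 and 31.4% of the CRABP1-high cells and in 32.3 and 23.2% of all other cells. The summed level of *COL1A2* was lower, at 37.0 and 18.8 CPM against 103 and 67.8 CPM. This order was built in, since the gate capped the gene in each CRABP1-high cell and set no such limit on all other cells. At the limit, the 28 and 43 cells with 15 to 19 *CRABP1* UMIs had 69.9 and 46.6 CPM of *LHX2*, and the 45 and 87 cells with 10 to 14 had 69.9 and 57.1 CPM.

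Besides all other cells, 3 smaller sets of cells served for comparison. Pluripotent cells had at least 5 UMIs each of *POU5F1* and *DNMT3B* (338 and 614 cells), PAX6/KCNAB1 cells had at least 3 UMIs each of these genes of placode and neural ectoderm (86 and 104 cells), and SCRG1/SOX10 cells had at least 3 UMIs of that pair with low collagen (32 and 37 cells). The sets did not overlap and were taken in the order CRABP1-high, SCRG1/SOX10, pluripotent and PAX6/KCNAB1 cells. Because they were chosen by raw UMIs, the pluripotent cells were deeper than the CRABP1-high cells, with a median of 49219.5 and 42721.5 UMIs. UMIs were summed per library and set of cells, and the sums were compared with edgeR's quasi-likelihood test and Benjamini-Hochberg adjustment over all genes tested. With 2 libraries, the p-values measure only the spread between them, and any gene that goes with *CRABP1* across cells was bound to differ once the cells had been chosen on it. Log2 fold changes are given with their standard error.

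Of all gene lists, that of the anterior neural plate and eye field had the highest median log2 fold change against all other cells. *SIX3*, on chromosome 3 from 95521330 to 95527004, stood at 273 and 256 CPM in the 2 libraries against 22.2 and 27.9 CPM in all other cells (log2 fold change 3.27 ± 0.11, adjusted p = 3.38e-06). *LHX2*, on chromosome 1 from 264900931 to 264920888, reached 248 and 211 CPM against 7.93 and 8.87 CPM (4.65 ± 0.10, adjusted p = 6.09e-07). For both genes the CRABP1-high cells were above every other set of cells in both libraries. *SIX6* was measured at 61.7 and 59.8 CPM against 0.552 and 0.757 CPM (6.41 ± 0.14, adjusted p = 6.76e-07). *RAX*, the gene that begins eye field formation, had 29.2 and 27.1 CPM against 1.14 and 1.46 CPM (4.31 ± 0.15, adjusted p = 3.55e-06). In each of these 4 genes both libraries of the CRABP1-high cells lay above both sums of all other cells.

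Of the 24 genes listed for the anterior neural plate and eye field, 23 could be tested against all other cells, and 17 were higher and 1 lower in the CRABP1-high cells, with a median log2 fold change of 1.74. Over all 20339 genes tested, 11.8% were higher and 12.4% lower (24.3% called in either direction) and the median was -0.01. *FEZF1* (123 and 134 against 3.22 and 6.23 CPM) and *HESX1* (110 and 123 against 25.3 and 39.2 CPM) were among the genes that were higher. *EMX2*, of the dorsal forebrain, was higher at a low level, with 8.71 and 6.79 CPM (3.07 ± 0.23, adjusted p = 8.74e-05). *OTX1* was the gene that was lower, at 13.1 and 8.76 CPM against 24.0 and 21.3 CPM (-1.21 ± 0.15, adjusted p = 0.00103). *NKX2-1*, the factor of the ventral forebrain and hypothalamus, had no UMI among the 20360495 UMIs of the CRABP1-high cells, which allows up to 0.147 CPM over both libraries.

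**Figure D1:**
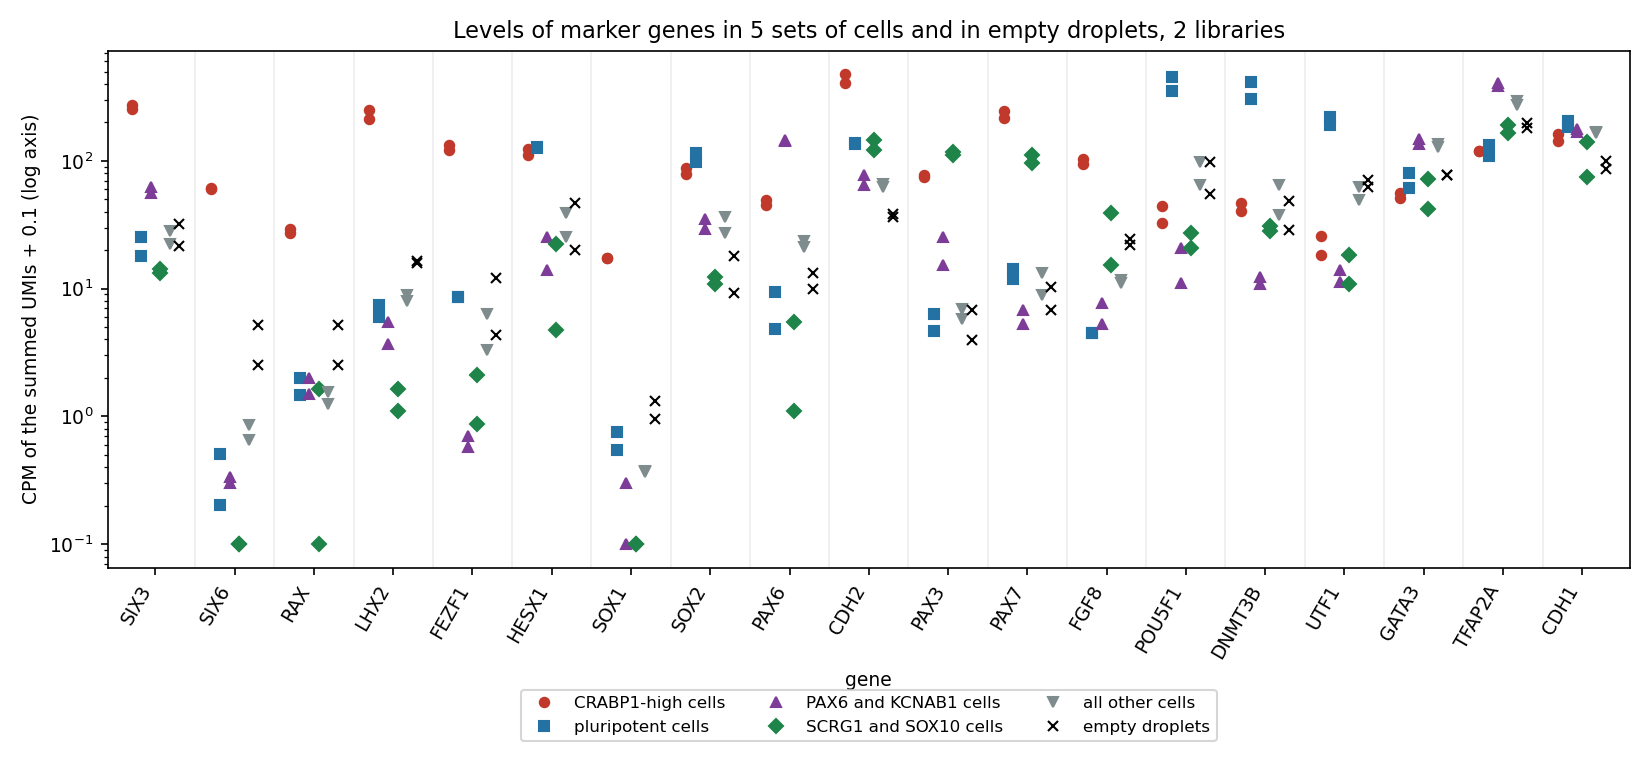
Levels of marker genes as CPM of summed UMIs plus 0.1, on a log axis, for the CRABP1-high cells, the compared sets of cells and empty droplets, with 1 symbol shape and colour for each set and 1 point for each of the 2 libraries. *SIX3* at 273 and 256 CPM and *LHX2* at 248 and 211 CPM sit above all other sets in the CRABP1-high cells, while *POU5F1* at 32.4 and 44.1 CPM sits far below the pluripotent cells.

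The same was seen cell by cell. *SIX3*, *SIX6*, *RAX*, *LHX2* and *FEZF1* together gave at least 5 UMIs in 193 (83.2%) and 336 (83.0%) of the CRABP1-high cells. Among pluripotent cells the share was 17.2 and 10.1%, among PAX6/KCNAB1 cells 22.1 and 28.8%, and among SCRG1/SOX10 cells 3.12 and 5.41%, although the pluripotent and PAX6/KCNAB1 cells were deeper. A UMI of *LHX2* was found in 81.0 and 78.0% of the CRABP1-high cells and in 11.3 and 12.4% of all other cells. With each cell thinned to 15000 UMIs, which left out 21 and 64 CRABP1-high cells, the shares were 72.5 and 68.0% against 6.43 and 7.27% in all other cells and 5.97 and 6.64% in the pluripotent cells. Empty droplets held 15.9 and 16.2 CPM of *LHX2*, above the 7.93 and 8.87 CPM of all other cells. Conversely, of the 221 and 341 cells with at least 3 UMIs each of *SIX3* and *LHX2*, 62.9 and 65.7% were CRABP1-high, and they were 59.9 and 55.3% of the CRABP1-high cells.

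Genes of the neural ectoderm at large were high as well. Of 22 pan-neural genes tested, 17 were higher and 1 lower than in all other cells, with a median log2 fold change of 1.17. N-cadherin, *CDH2*, was at 476 and 409 CPM against 62.7 and 65.6 CPM (2.66 ± 0.08, adjusted p = 2.17e-06). *SOX1*, which is restricted to committed neural ectoderm, was low, at 17.2 and 17.3 CPM against 0.268 and 0.273 CPM (5.87 ± 0.17, adjusted p = 2.17e-06), and it was found in 28.0 and 27.4% of the CRABP1-high cells and in 0.701 and 0.695% of all others. *SOX2* had 87.6 and 79.3 CPM against 26.9 and 36.2 CPM (1.28 ± 0.14, adjusted p = 0.000482). *PAX6*, of the eye field and later neural progenitors, was only modestly higher at 49.4 and 45.4 CPM against 21.0 and 23.3 CPM (0.97 ± 0.08, adjusted p = 0.000158), below its level in the PAX6/KCNAB1 cells, which it had chosen. *NES*, of the neural progenitor filament nestin, did not pass the test (21.2 and 18.9 against 19.7 and 19.6 CPM, adjusted p = 0.450), and *POU3F2* was lower (14.3 and 14.5 against 37.3 and 34.7 CPM).

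Of 19 neuron genes tested against all other cells, 2 were higher (10.5%), 10 were lower (52.6%) and 7 did not pass, with a median log2 fold change of -0.51. Over all genes tested, 11.8% were higher and 12.4% lower. The summed level of all 21 listed genes in the files was 658 and 670 CPM against 591 and 589 CPM in all other cells. Against the pluripotent cells, 3 of 17 were higher and 3 lower (17.6% each), near the 19.6% higher and 19.2% lower over all genes tested. *DCX*, of a microtubule-binding protein of young neurons, was at 13.0 and 11.7 CPM against 4.47 and 4.10 CPM (1.40 ± 0.13, adjusted p = 0.000241), whereas the proneural gene *NEUROG1* was at 1.69 and 1.58 CPM against 7.54 and 6.11 CPM (-2.19 ± 0.22, adjusted p = 0.000363), a call that was lost with the gate on CPM (-0.78 ± 0.61, adjusted p = 0.400). *NEUROD1* had 0 and 0.0790 CPM against 1.15 and 1.03 CPM.

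Along the head-to-tail axis, the genes of the midbrain-hindbrain boundary were split from those of the hindbrain. *PAX2* (32.2 and 22.7 CPM), *FGF8* (93.9 and 103 CPM), *FGF17* (20.4 and 26.1 CPM) and *LMX1A* (22.7 and 15.6 CPM) were all higher than in all other cells. The secreted factor FGF8 is a signal of both the anterior neural ridge and the midbrain-hindbrain boundary, and *FGF8* was at 10.9 and 11.5 CPM in all other cells (3.02 ± 0.09, adjusted p = 1.98e-06). *WNT1* and *EN1*, of the boundary itself, were higher at low levels (8.97 and 5.29 CPM, and 5.07 and 3.24 CPM). In contrast *IRX3* was at 21.8 and 23.2 CPM against 63.0 and 60.3 CPM (-1.56 ± 0.08, adjusted p = 1.89e-05), and *MEIS2* at 131 and 120 CPM against 267 and 239 CPM. Altogether 9 of the 25 midbrain and hindbrain genes tested were higher and 10 were lower. No *HOX* gene of the lists exceeded 0.910 CPM in the CRABP1-high cells, against 8.83 CPM for the highest in all other cells, and the trunk genes *CDX1* and *MSGN1* had no UMI, with the same upper limit as *NKX2-1*. Of 11 genes of the caudal epiblast and primitive streak tested, 3 were higher and 1 lower, with *T*, the brachyury gene, at 0.260 and 0.316 CPM against 0.0406 and 0.0159 CPM, which did not pass without the filter on low counts (adjusted p = 0.0628).

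The neural plate border genes *PAX7* and *PAX3* were high. *PAX7* had 246 and 217 CPM against 8.87 and 13.2 CPM (4.27 ± 0.18, adjusted p = 7.68e-06), and *PAX3* had 77.0 and 74.5 CPM against 5.63 and 6.83 CPM (3.48 ± 0.11, adjusted p = 2.18e-06). At least 5 UMIs of the pair were present in 129 and 232 of the CRABP1-high cells (55.6 and 57.3%). Of these, 116 and 193 cells also had at least 5 UMIs of the eye field and forebrain genes above. The border pair did not set the CRABP1-high cells apart from the SCRG1/SOX10 cells, where 16 of 32 and 17 of 37 reached 5 UMIs. Among pluripotent cells the share was 7.99 and 4.07%, and among PAX6/KCNAB1 cells 8.14 and 6.73%. Of 20 neural crest and glia genes tested, 11 were higher and 4 lower, but the exclusion of *SCRG1* and *SOX10* cells from the gate acted on this list directly. *S100B*, *NGFR*, *SOX8*, *SOX9* and *FOXD3*, all used by crest or glia, were among those higher. *TWIST1* (15.3 and 8.21 against 70.4 and 41.4 CPM) and *TFAP2A* (120 and 120 against 293 and 271 CPM) were among those lower. *TFAP2A* serves neural crest, surface ectoderm and trophoblast alike. *GRHL3*, an epidermal and neural fold factor, was the single surface ectoderm gene of 16 tested that was higher than in all other cells. It was at 57.4 and 65.6 CPM against 8.66 and 12.0 CPM (2.46 ± 0.16, adjusted p = 4.88e-05), while 8 were lower, among them *TP63* and *KRT8*. Against the pluripotent cells, 2 of 14 were higher (*GRHL3* and *TP63*) and 4 lower. Against the SCRG1/SOX10 cells 3 of 14 were higher, *KRT8* among them, and 1 lower, and against the PAX6/KCNAB1 cells 1 was higher and 5 lower.

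Of 16 trophectoderm genes tested, none was higher and 14 were lower than in all other cells, with a median of -1.07. *GATA3*, of the trophoblast, was at 56.0 and 51.4 CPM against 134 and 128 CPM (-1.41 ± 0.07, adjusted p = 1.35e-05), and it stood at 77.4 and 77.2 CPM in empty droplets, so that the level in the CRABP1-high cells lay below that of free RNA. *KRT8*, a keratin of simple epithelia, had 2754 and 2874 CPM against 4959 and 4565 CPM. Of 9 amnion genes, 8 were lower, led by *TAC3* at 5.85 and 6.24 against 54.5 and 38.1 CPM. Of 15 hypoblast genes, 3 were higher and 3 lower. The mesenchyme and cardiac list, where 11 of 13 were lower, was touched by the collagen limit of the gate. The counts above are against all other cells and depended on the compared set. Against the pluripotent cells, 2 of 15 trophectoderm genes were higher and 4 lower, with a median of -0.07, beside 19.6 and 19.2% over all genes tested. Against PAX6/KCNAB1 cells 2 were higher and 7 lower, and against SCRG1/SOX10 cells 2 were higher and 1 lower. Of the 9 amnion genes, 2 were lower than in pluripotent cells, 3 than in PAX6/KCNAB1 cells and none than in SCRG1/SOX10 cells.

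The question of epiblast or neural ectoderm was asked of the pluripotency genes. *POU5F1*, whose product OCT4 holds pluripotency, was at 32.4 and 44.1 CPM, compared with 351 and 453 CPM in the pluripotent cells, 64.3 and 98.5 CPM in all other cells and 54.9 and 97.3 CPM in empty droplets. *DNMT3B* was at 40.5 and 46.4 CPM against 305 and 413 CPM in the pluripotent cells. Both genes chose the pluripotent cells, so these values are a description. Against all other cells, which *DNMT3B* did not choose, *DNMT3B* did not pass the main test. Its log2 fold change there ran from -0.655 to -0.0451 over the settings, and it passed only with the library as a replicate block (-0.36 ± 0.09, adjusted p = 0.00788). Of the CRABP1-high cells themselves, 5 of 232 and 14 of 405 met the pluripotent gate (2.16 and 3.46%). The gate was also rare outside them, where 338 and 614 cells met it in libraries of 7369 and 8175 cells. Against the pluripotent cells, 15962 genes were tested, of which 19.6% were higher and 19.2% lower (38.8% in all), and of 18 epiblast and pluripotency genes 1 was higher and 13 lower, with a median of -0.48. Genes that go with *POU5F1* and *DNMT3B* were bound to be lower than in cells chosen on them. Against all other cells, 2 of 22 genes of this list were higher, 5 lower and 15 did not pass, with a median of -0.32. *UTF1*, a chromatin factor of embryonic stem cells, was at 18.3 and 25.6 CPM against 189 and 221 CPM in the pluripotent cells (-3.25 ± 0.15, adjusted p = 3.67e-08). *PRDM14* was at 1.95 and 2.45 CPM against 24.6 and 23.5 CPM there (-3.47 ± 0.21, adjusted p = 2.92e-07). *NANOG* was low everywhere, with 0.650 and 0.632 CPM against 5.29 and 7.27 CPM in the pluripotent cells (-3.35 ± 0.44, adjusted p = 0.000153). The gene that was higher than in the pluripotent cells was *LIN28B*, of an RNA-binding protein of early embryonic and neural progenitor cells, at 210 and 169 CPM against 76.1 and 77.9 CPM.

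Genes used by both epiblast and early ectoderm did not separate the CRABP1-high cells from the pluripotent cells in the same way. *SOX2* was at 87.6 and 79.3 CPM against 97.9 and 114 CPM (-0.41 ± 0.12, adjusted p = 0.0165), a call that was lost with a *CRABP1* minimum of 30 UMIs (adjusted p = 0.102) and with the gate on CPM (adjusted p = 0.0959). *OTX2* was at 59.1 and 56.3 CPM against 72.4 and 82.8 CPM (-0.49 ± 0.10, adjusted p = 0.00232). *HESX1* had 125 and 129 CPM in the pluripotent cells and did not pass the test (-0.18 ± 0.22, adjusted p = 0.569), and neither did *ZIC2* (146 and 118 against 118 and 125 CPM, adjusted p = 0.769). Missing the threshold does not show that the levels are alike. Of the 16 genes of the primed epiblast to ectoderm list, 5 were higher and 6 lower. Against all other cells, 13 of the 17 genes of this list were higher and none lower, with a median of 1.01.

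The anterior neural genes did separate the pair. Of 20 tested against the pluripotent cells, 15 were higher and 2 lower, with a median log2 fold change of 2.94, against 0.01 over all genes tested. *OTX1*, which was lower than in all other cells, was among the 15. Of 21 pan-neural genes, 13 were higher and 3 lower, with a median of 1.15. *POU3F2*, also lower than in all other cells, was higher than in the pluripotent cells (0.62 ± 0.16, adjusted p = 0.00984). *SIX3* was at 25.3 and 17.9 CPM in the pluripotent cells (3.57 ± 0.16, adjusted p = 3.31e-08) and *LHX2* at 7.35 and 5.86 CPM (5.08 ± 0.13, adjusted p = 7.65e-10). *SOX1* was at 0.655 and 0.446 CPM there, and *CDH2* at 135 and 138 CPM (1.64 ± 0.08, adjusted p = 9.10e-08). The E-cadherin gene *CDH1* was at 144 and 162 CPM against 203 and 185 CPM (-0.39 ± 0.14, adjusted p = 0.0407, and 0.104 with DESeq2) and at 166 and 168 CPM in all other cells (-0.24 ± 0.08, adjusted p = 0.0654, and 0.00444 with the library as a replicate block), with 99.4 and 86.2 CPM in empty droplets. Against all other cells *CDH1* was also called lower by edgeR with doublets left out (adjusted p = 0.0300). The same held with a *CRABP1* minimum of 30 UMIs (0.00383) and with the gate on CPM (0.00562). The level of *CDH1* was 220 and 214 CPM in the CRABP1-high cells with 15 to 29 *CRABP1* UMIs and 75.8 and 65.5 CPM, below that of empty droplets, in those with 100 or more. Genes of S phase were lower than in the pluripotent cells, 14 of 16 with none higher, for example *PCNA* at 118 and 145 CPM against 253 and 274 CPM (-1.05 ± 0.10, adjusted p = 8.35e-06). Of 16 genes of G2 and M phase, none was higher and 6 were lower than in the pluripotent cells. Against all other cells, 1 of the 16 S phase genes was higher and 1 lower, and 4 of the 16 G2 and M phase genes were higher, *MKI67* among them, and none lower.

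**Figure D2:**
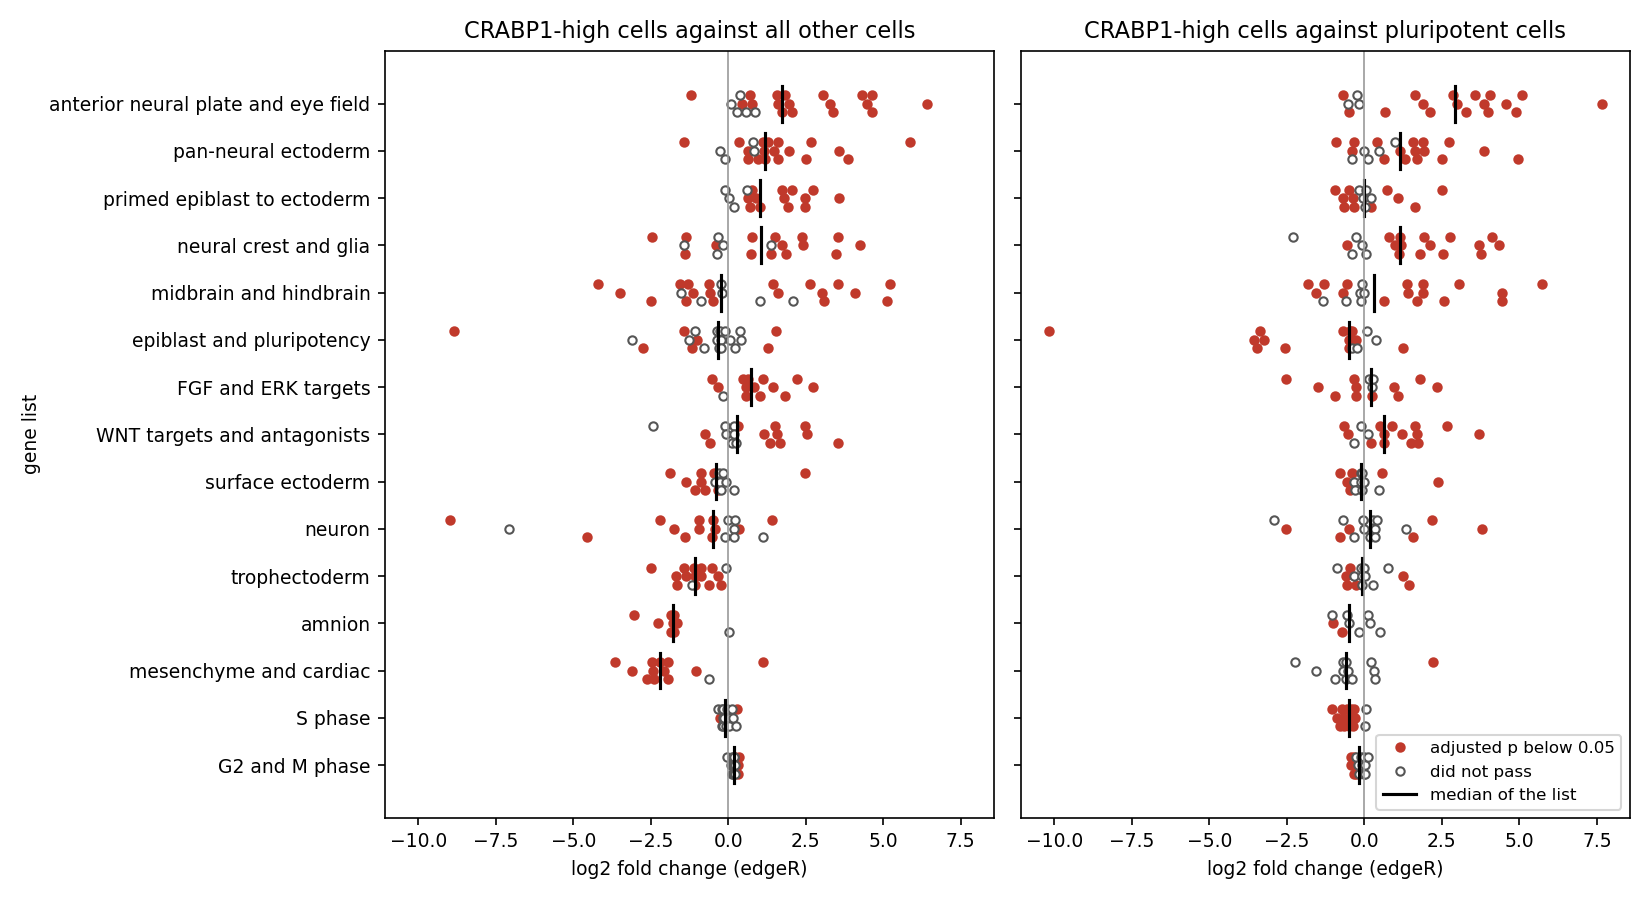
Log2 fold changes (edgeR) of the genes of each list in the CRABP1-high cells against all other cells and against the pluripotent cells, with filled points for genes with an adjusted p below 0.05, open points for genes that did not pass, and a bar at the median of the list. The anterior neural plate and eye field list has a median of 1.74 against all other cells and 2.94 against the pluripotent cells, where the epiblast and pluripotency list has a median of -0.48.

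Of the compared sets, the PAX6/KCNAB1 cells had the highest level of *SIX3*, at 56.3 and 62.2 CPM (2.07 ± 0.16, adjusted p = 3.10e-06). Of 15962 genes tested against them, 23.1% passed (11.8% higher, 11.3% lower), and of 20 anterior neural genes 13 were higher and 2 lower. *LHX2* was at 3.56 and 5.38 CPM there (5.57 ± 0.18, adjusted p = 1.18e-08), and *FEZF1* at 0.475 and 0.598 CPM. *ZEB2*, a repressor of epithelial genes in neural and crest cells, was at 99.0 and 88.3 CPM against 1.42 and 0.996 CPM (6.21 ± 0.24, adjusted p = 1.75e-08). Placode genes went the other way, with 1 of 14 higher and 8 lower, but *KCNAB1*, a gene of that list, had chosen the compared cells. Against the pluripotent cells, 8 of 15 placode genes were higher and none lower, and against all other cells 3 of 17 were higher and 6 lower. The next counts are again against the PAX6/KCNAB1 cells. Of 20 epiblast and pluripotency genes, 5 were higher (*DNMT3B*, *SOX2*, *LIN28B*, *POU5F1* and *UTF1*) and 1 lower. Cells that met the pluripotent gate had first been taken out of the PAX6/KCNAB1 set but not out of the CRABP1-high cells. The choice of cells therefore favoured higher calls of *POU5F1*, *DNMT3B* and genes that go with them. *POU3F2* was at 154 and 128 CPM in the PAX6/KCNAB1 cells (-3.37 ± 0.14, adjusted p = 5.66e-08), and *GAD2*, of a GABA-synthesising enzyme, was at 2.99 and 4.11 CPM in the CRABP1-high cells against 30.4 and 31.1 CPM (-3.15 ± 0.23, adjusted p = 3.45e-06).

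The SCRG1/SOX10 cells held *CRABP1* at 4344 and 2767 CPM, a description since the gate used this gene, and differed from the CRABP1-high cells in the anterior genes. Among 15964 genes tested, 8.74% passed (4.64% higher, 4.10% lower). *LHX2* was at 1.01 and 1.54 CPM there (7.39 ± 0.33, adjusted p = 3.83e-07) and *SIX3* at 14.1 and 13.1 CPM (4.23 ± 0.29, adjusted p = 7.50e-06), while *SIX6* had no UMI in either library, which allows up to 1.31 CPM over both. Of 20 anterior neural genes, 9 were higher and 1 lower, the latter being *NR2F1* (23.4 and 20.6 against 68.7 and 42.3 CPM), which did not pass with a *CRABP1* minimum of 30 UMIs (adjusted p = 0.0683). Of 20 epiblast and pluripotency genes, 4 were higher (*SOX2*, *LIN28B*, *ZFP42* and *SALL4*) and none lower. The crest genes *SOX9* (38.3 and 36.3 against 176 and 165 CPM) and *ETS1* (7.28 and 6.55 against 132 and 112 CPM) were lower, as were 11 of 20 genes of that list, and *PAX7* was the 1 that was higher (96.9 and 111 CPM in the SCRG1/SOX10 cells, 1.09 ± 0.23, adjusted p = 0.0109). *PAX3* did not pass (111 and 116 CPM there, adjusted p = 0.0766). Since the gate removed *SCRG1* and *SOX10*, genes that go with them were bound to be lower.

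Of 20 retinoic acid genes other than *CRABP1* tested against all other cells, 3 were higher and 8 lower, with a median of -0.44. *STRA6*, of the membrane receptor that takes up retinol, was at 17.4 and 20.6 CPM against 0.597 and 1.14 CPM (4.34 ± 0.30, adjusted p = 5.96e-05). The synthesising enzymes were scarce, *ALDH1A2* at 0.520 and 0.395 CPM and *ALDH1A3* at 0.130 and 0.316 CPM, and *ALDH1A1* was lower, at 6.89 and 9.63 against 15.5 and 17.1 CPM. *RARB*, a receptor gene that retinoic acid induces, was at 33.5 and 31.1 CPM against 43.8 and 46.2 CPM (-0.60 ± 0.07, adjusted p = 0.000918). *CRABP2*, of the other cellular binding protein, was at 132 and 119 CPM against 173 and 161 CPM. The directions depended on the compared cells. Against the pluripotent cells, 9 of 19 retinoic acid genes were higher and 7 lower, with a median of 0.35. *ALDH1A1* and *RARB* were among those higher there, and *ALDH1A2* and *CRABP2* among those lower.

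Among 14 genes of FGF receptors and ERK targets, 11 were higher and 2 lower than in all other cells (median 0.72), with *ETV5*, a transcription factor gene induced by FGF, at 105 and 116 CPM against 13.4 and 17.2 CPM (2.74 ± 0.13, adjusted p = 1.31e-05). Against the pluripotent cells, 5 of these 14 were higher and 6 lower. Of 18 WNT targets and antagonists, 9 were higher and 2 lower than in all other cells, and against the pluripotent cells 12 of 17 were higher and 2 lower. Against all other cells, *NOTUM*, *LGR5* and *ZNRF3* were among those higher, and *RNF43* and *FZD7* were lower. The secreted antagonists *FRZB* (33.0 and 27.6 against 4.74 and 4.86 CPM), *SFRP2* (66.3 and 73.8 against 10.2 and 13.1 CPM) and *DKK1* (10.3 and 8.61 against 0.848 and 0.634 CPM) were higher, as was the effector *LEF1* (162 and 129 against 47.5 and 41.6 CPM), and *AXIN2*, a feedback target, did not pass (15.3 and 10.4 against 12.9 and 11.3 CPM, adjusted p = 0.817). Of 16 BMP targets and antagonists, 7 were higher and 3 lower (*BMP4*, *BAMBI* and *SMAD6*) than in all other cells. The antagonists *GREM1* (35.9 and 35.9 against 1.11 and 1.01 CPM) and *NOG* (13.3 and 10.8 against 1.71 and 1.47 CPM) were higher, the ligand *BMP4* was lower (9.61 and 9.55 against 48.0 and 36.6 CPM), and the targets *ID1* and *ID3* were higher (602 and 545 against 333 and 320 CPM, and 592 and 521 against 239 and 230 CPM). Of 15 Notch genes 5 were higher and 2 lower, and of 10 Hedgehog genes 4 were higher and 2 lower.

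Among the genes outside the lists with the largest log2 fold changes was *CDH6*, of a cadherin of the neural plate and its border, at 352 and 307 CPM against 6.00 and 7.21 CPM in all other cells (5.52 ± 0.11, adjusted p = 6.09e-07). *PCDH9*, a protocadherin gene, was at 77.4 and 74.1 CPM against 3.73 and 2.81 CPM (4.41 ± 0.13, adjusted p = 2.17e-06). *CRYBA2*, of a lens crystallin, was at 60.3 and 32.2 CPM against 0.995 and 1.57 CPM (log2 fold change 5.01 ± 0.31, adjusted p = 3.84e-05, and 4.24 without library 1 and 5.76 without library 2). *LOC100514051*, a gene without a symbol of its own, was at 299 and 296 CPM against 5.76 and 6.75 CPM.

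The CRABP1-high cells were not alike, and many levels followed *CRABP1* within them. They were divided by *CRABP1* UMIs into 51 and 107 cells with 15 to 29, 88 and 162 with 30 to 99, and 93 and 136 with 100 or more. Over these bins *LHX2* was at 89.0, 253 and 370 CPM in library 1 and 87.3, 190 and 395 CPM in library 2. *CDH2* was at 185, 423 and 770 CPM in library 1 and 185, 389 and 714 CPM in library 2. The order of the bins was the same in both libraries for both genes. *CDH1* ran the other way, at 220, 149 and 75.8 CPM in library 1 and 214, 185 and 65.5 CPM in library 2. *KRT8* was at 3938, 2792 and 1758 CPM in library 1 and 3684, 2918 and 1815 CPM in library 2. Cells with fewer than 10 *CRABP1* UMIs that met the other limits had 177 and 174 CPM of *CDH1* and 54.0 and 59.8 CPM of *CDH2*, the reverse of the order in the top bin. *SIX3* changed little over the bins, at 245, 298 and 268 CPM in library 1 and 218, 279 and 267 CPM in library 2. *PAX7* was at 314, 230 and 208 CPM in library 1 and at 205, 243 and 193 CPM in library 2, with no common order. Depth moved with the bins, since the median fell from 35222 to 25613.5 and 24212 UMIs in library 1 and from 31784 to 27114.5 and 20444 in library 2, and its part in the pattern was not tested.

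**Figure D3:**
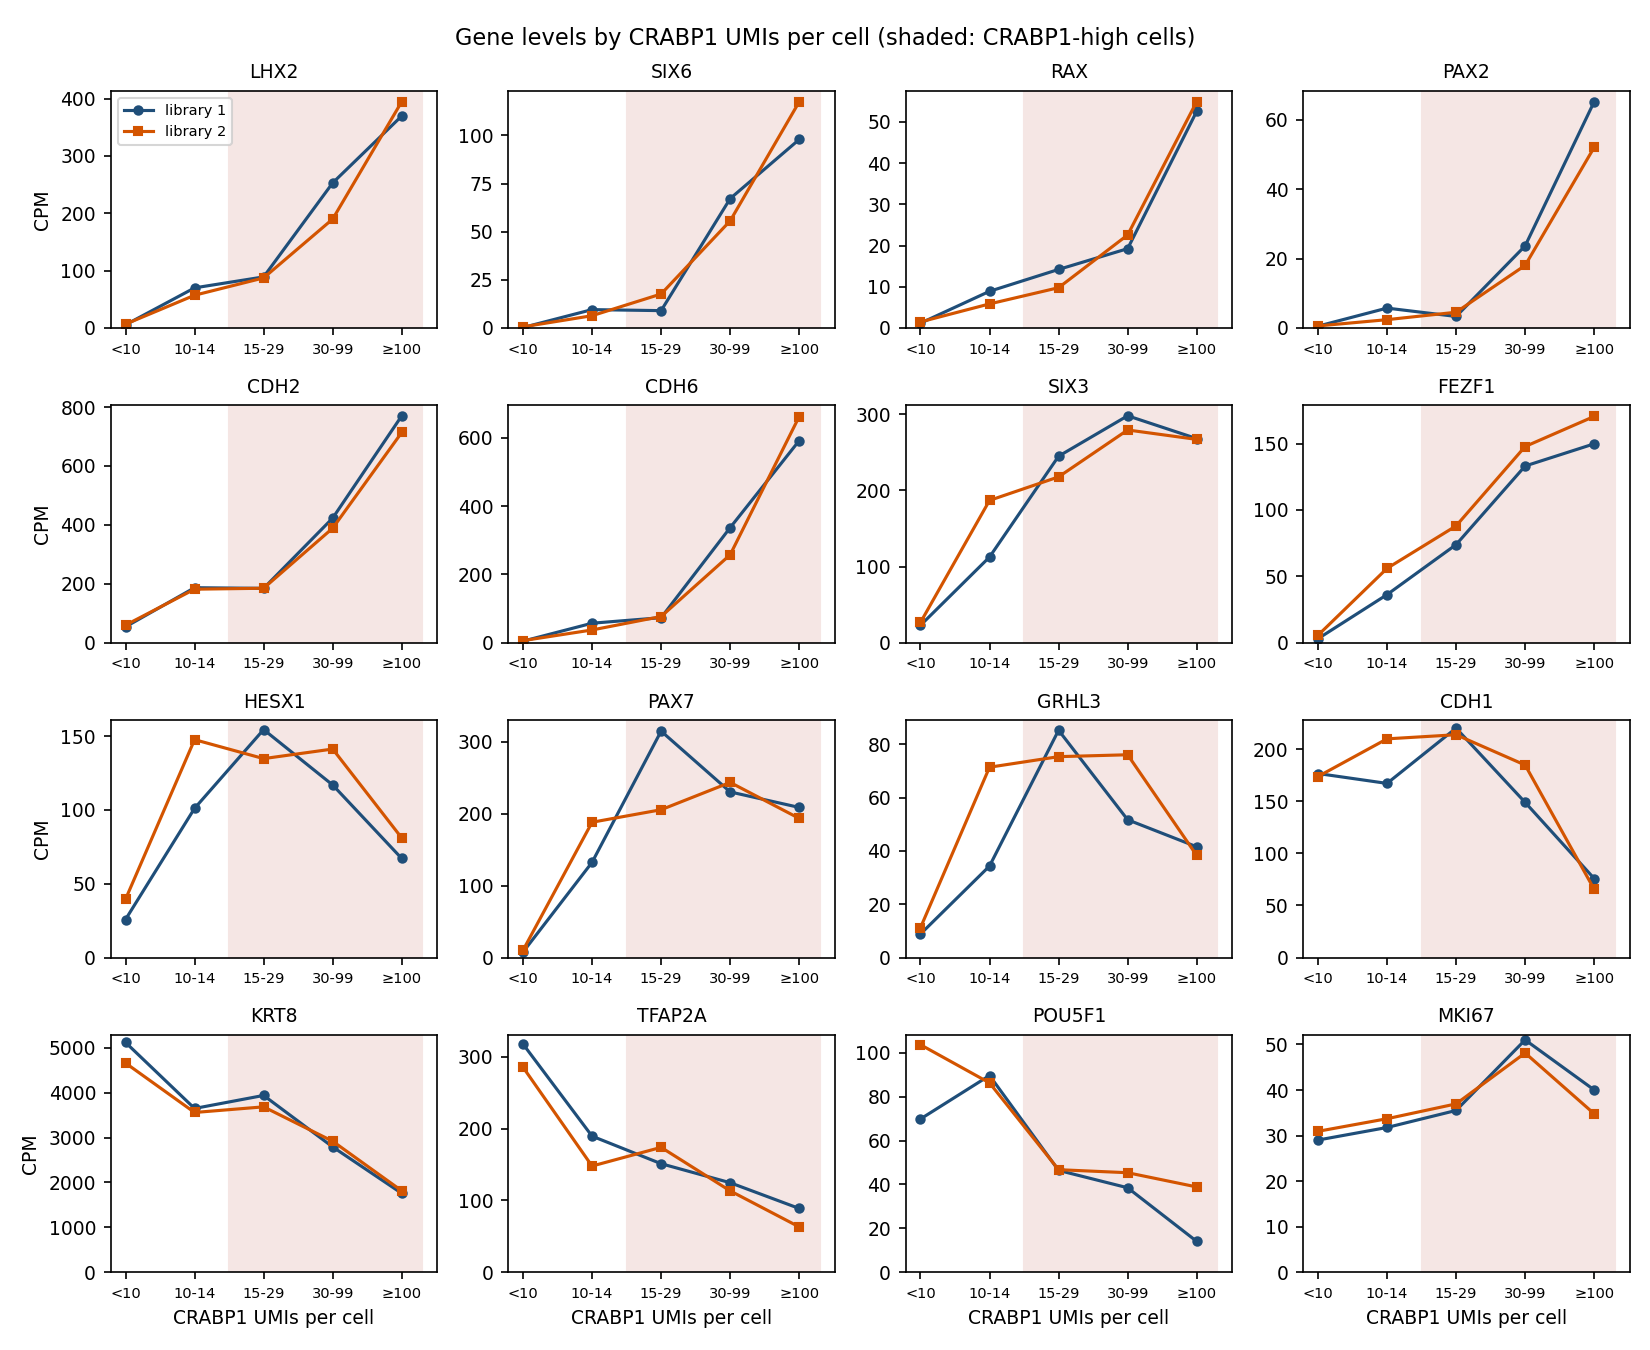
CPM of 1 gene per panel by the number of *CRABP1* UMIs per cell (below 10, 10 to 14, 15 to 29, 30 to 99, and 100 or more), with 1 line for each library and the CRABP1-high cells shaded. All cells shown are under the *SCRG1*, *SOX10* and collagen limits. *LHX2* climbs from 89.0 to 370 CPM in library 1 and from 87.3 to 395 CPM in library 2 within the shaded bins, and *CDH1* goes from 220 to 75.8 CPM and from 214 to 65.5 CPM.

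Correlations across the CRABP1-high cells, on UMI shares within each library, are given as a description. Spearman's rho of *CRABP1* was 0.583 and 0.622 with *LHX2*, 0.585 and 0.623 with *CDH6*, 0.530 and 0.579 with *CDH2*, -0.630 and -0.625 with *CDH1* and -0.553 and -0.552 with *KRT8* (232 and 405 cells). With *SIX3* it was 0.106 and 0.137. *SIX3* went with *FEZF1* (0.595 and 0.608) and *CDH2* with *CDH6* (0.730 and 0.742). *PAX7* went with *GRHL3* (0.561 and 0.511), and with *RAX* its rho was -0.323 and -0.297. The cells of 1 library share free RNA and differ in depth, and *CRABP1* chose the cells and so bounds its own range.

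**Figure D4:**
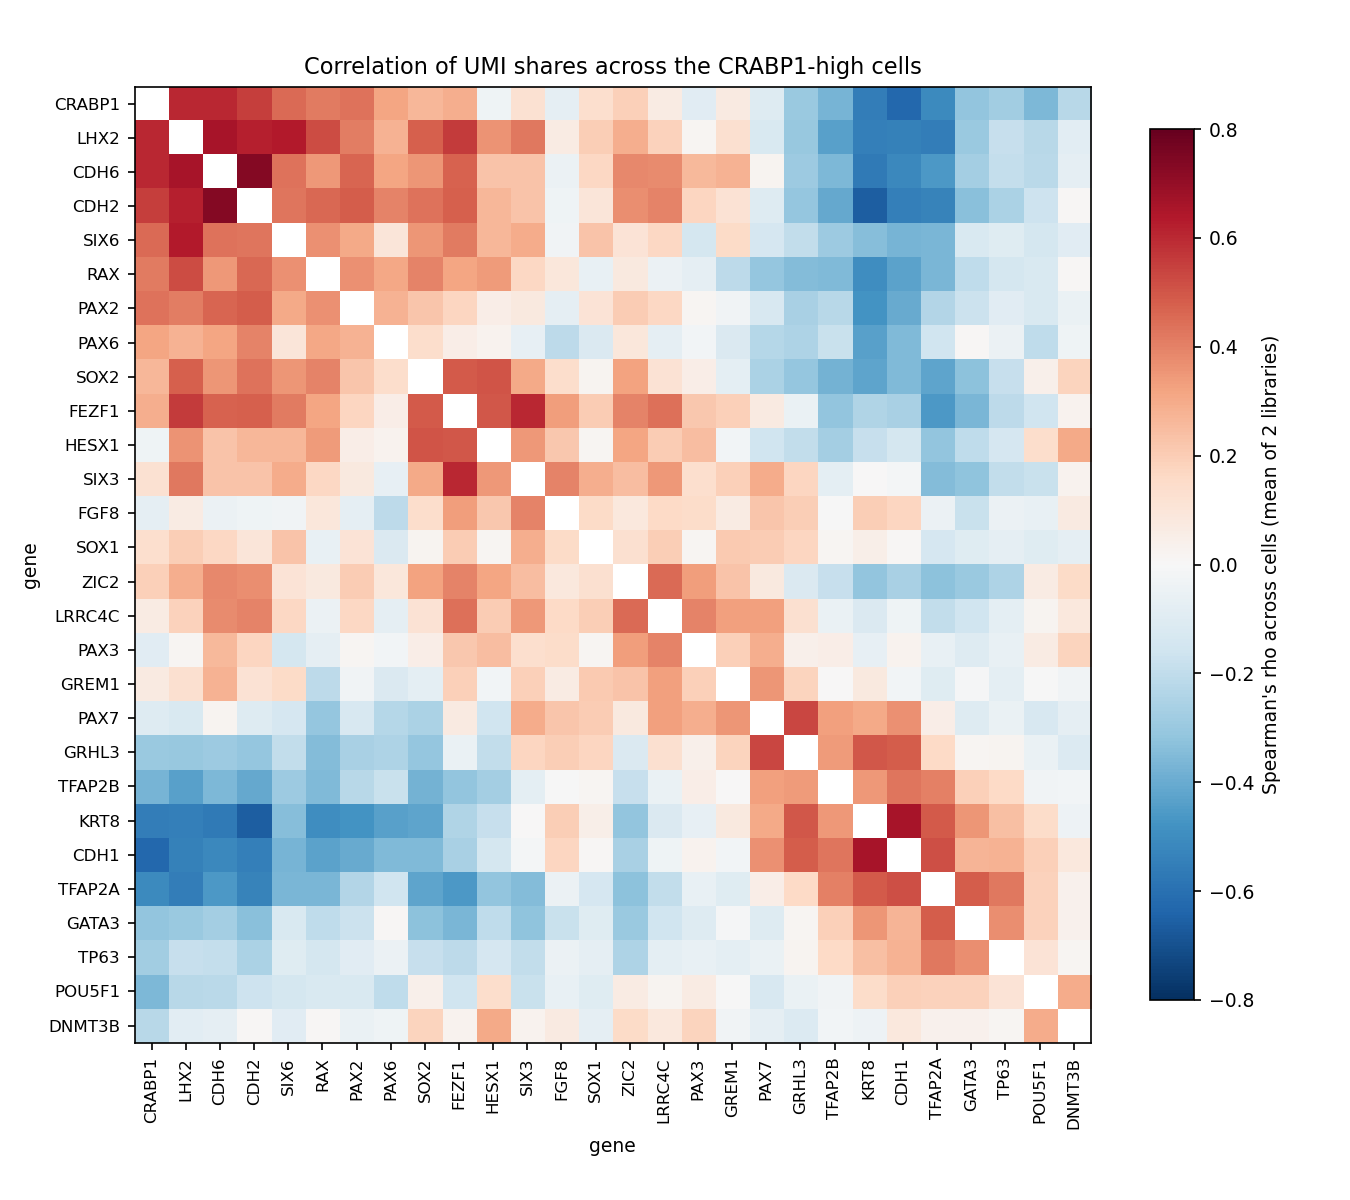
Spearman's rho between UMI shares of pairs of genes across the CRABP1-high cells, as the mean of the 2 libraries (232 and 405 cells), red for positive and blue for negative values. *CRABP1*, *LHX2*, *CDH6* and *CDH2* form a red block that is blue against *KRT8*, *CDH1* and *TFAP2A*, and *PAX7* is red with *GRHL3*.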

How the data were processed

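Single-cell RNA sequencing of 2 libraries of porcine blastoids was analysed. The authors made the deposited files with Cell Ranger 7.1.0 on susScr11 after quality control with Dr.seq2, which hold UMI counts of every barcode, not normalized and with empty droplets included, in all 289452283 and 302211552 UMIs. The bulk table, FPKM per transcript by the authors in 3 columns whose names match no sample label, was not used. Cells, gates and sets of cells are given with the results. UMIs were summed per library and set, and tested with edgeR 4.0.16 (R 4.3.3; quasi-likelihood, TMM, filterByExpr, Benjamini-Hochberg adjustment, threshold 0.05), against all other cells in a fit of 4 sums and otherwise in a fit of 10 sums. The genes of the CRABP1-high gate were left untested in every comparison. *POU5F1* and *DNMT3B* were left untested only against the pluripotent cells, and *PAX6* and *KCNAB1* only against the PAX6/KCNAB1 cells. CPM were computed from the sums, doublet scores with Scrublet in scanpy 1.11.5, and thinning drew 15000 UMIs per cell. Coordinates come from RefSeq, which matched 406 of 406 genes by symbol.

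The members and gene lists were chosen with earlier results of these data known. Named genes are those of the lists and, per comparison, the 10 with the largest and 5 with the smallest log2 fold change among genes with an adjusted p below 0.05, the same direction in both libraries and 20 CPM in the higher set. Genes with LOC names were passed over in this rule, and *LOC100514051* was named after its values were seen. The results of 3 genes are not reported here. Sums of the same library come from the same sample and are therefore paired: the library difference of the CRABP1-high cells correlated over 7162 genes with that of the SCRG1/SOX10, pluripotent, PAX6/KCNAB1 and remaining cells at 0.156, 0.330, 0.120 and 0.514. Alternatives were DESeq2 1.42.0, RLE normalization, no low-count filter, the replicate block, mitochondrial and doublet filters, other gates and leaving out each library.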

Additional observations from a re-analysis of the deposited data

Results flagged for a closer look

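Barcodes below the cell threshold were outside every comparison, and some of them met the gate. In library 1 these were 101 of 2212 barcodes with at least 1000 and fewer than 5000 UMIs (4.57%, exact interval 3.73 to 5.52%) and 56 of 896 barcodes from 5000 UMIs to the threshold (6.25%, 4.76 to 8.04%). In library 2 they were 156 of 2786 (5.60%, 4.77 to 6.52%) and 67 of 875 (7.66%, 5.98 to 9.62%). All barcodes of these ranges held 896 and 736 CPM of *CRABP1* in library 1 and 1057 and 854 CPM in library 2, against 281 and 380 CPM in the empty droplets of the 2 libraries.

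Those that met the gate carried *LHX2* at 419 and 466 CPM in library 1 and 410 and 322 CPM in library 2. *VIM* was at 915 and 821 CPM and at 923 and 656 CPM. *CDH1* was at 14.8 and 14.8 CPM and at 18.6 and 15.6 CPM, below the 75.8 and 65.5 CPM of the cells with 100 or more *CRABP1* UMIs. A minimum of 15 *CRABP1* UMIs asks for a larger share of the UMIs in a barcode of few UMIs, and its part in these values was not tested.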

How the results depend on the processing

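Of the 4 counts of genes called, 1 moved by more than 1.5 times: against the SCRG1/SOX10 cells, the gate on CPM called 2482 genes in place of 1396. With the replicate block, which pairs the sums of a library, 6612, 7388, 4262 and 1582 genes were called against all other, pluripotent, PAX6/KCNAB1 and SCRG1/SOX10 cells, in place of 4933, 6196, 3685 and 1396. Of the fold changes checked, the block made calls of *DNMT3B*, *CDH1*, *EPCAM* and *PCNA*, all lower than in all other cells (adjusted p = 0.00788, 0.00444, 0.000716 and 0.0310), and changed no other call. The mean share of cells, 4.05%, was 3.15 to 4.95% with either library left out. The number of list genes with a UMI in at least 50% of the CRABP1-high cells was 109 and was 112 to 118 with either library left out and 73 with cells thinned to 15000 UMIs. Over the 149 fold changes checked, 1169 of 1190 results kept their call, 9 lost it and 12 gained it. The exceptions were *SOX2*, *CDH1* and *EPCAM* against the pluripotent cells, *SPP1*, *PAX3* and *NR2F1* against the SCRG1/SOX10 cells, and *DNMT3B*, *NEUROG1*, *T*, *CDH1*, *EPCAM* and *PCNA* against all other cells. Against all other cells, *CDH1* and *EPCAM* were also called lower with doublets left out and with a *CRABP1* minimum of 30 UMIs. Both were called lower with the gate on CPM too, and *EPCAM* with DESeq2. Against the pluripotent cells, *EPCAM* lost its call with DESeq2 (adjusted p = 0.0948). The cause was not tested. Depth limits the SCRG1/SOX10 cells most, with 990516 and 1300314 UMIs.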
